A study of Mus musculus with 6 samples.

Results

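The genes of 10 nuclear speckle proteins that are related to, but not part of, the classical SR family (Pnn, Srrm1, Srrm2, Prpf4b, Psip1, Son, Acin1, Rnps1, Rbm25 and Luc7l3) were followed in mouse hematopoietic stem cells with and without a conditional deletion of Rbfox2. They were taken by name from 22969 gene identifiers, and each was found once. Pnn was chosen by its low counts in the Rbfox2-deleted libraries of the same comparison, and the other genes by their class, with earlier results of these libraries known. Their values in that comparison are therefore a description, without a test of their own. Control mice had the genotype Rbfox2-fl/fl, and deleted mice Vav1-cre; Rbfox2-fl/fl, so both groups carry floxed Rbfox2 and only the second carries the recombinase, which the Vav1 promoter drives in blood cells. All were C57BL/6. Adult bone marrow cells of the LSKCD150+CD48- phenotype, about 500 per library, went into 3 control and 3 Rbfox2-deleted Smart-seq2 libraries, a full-length cDNA method without strand information or molecular identifiers. The sources used here do not name the exon that Cre removes.

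Nuclear speckles are compartments between the chromatin domains that store and modify splicing factors. The proteins that build them, and many that pass through them, carry stretches rich in arginine and serine, and kinases that phosphorylate these stretches release the proteins to sites of transcription. Srrm2 and Son form the core of the speckle. Rnps1 binds messenger RNA after splicing, at the exon junction complex, in trimers with Sap18 and either Acin1 (the ASAP complex) or Pnn (the PSAP complex). Rbfox2 itself is an RNA-binding regulator of alternative splicing that reads the letters TGCATG, mostly in introns.

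The letters TGCATG are shown first, since they are what the deleted factor binds. Searched on the sense strand of the longest protein-coding transcript of each gene (mm10), they were found 8 times in 4 of the 10 genes, with 7 matches in 3′ UTRs and 1 in coding sequence. Each line gives 30 bases, 5′ to 3′, with the match in capitals.
Pnn, 3′ UTR, chr12:59072897-59072926, plus strand: tgccttaagaatTGCATGttgtaaaaattc
Prpf4b, 3′ UTR, chr13:34902209-34902238, plus strand: ggcagaattcccTGCATGtgtgataactga
Prpf4b, 3′ UTR, chr13:34902786-34902815, plus strand: agaagattgttcTGCATGggaagtgggccg
Prpf4b, 3′ UTR, chr13:34904371-34904400, plus strand: taacctgcaagtTGCATGtgctagccacac
Rbm25, coding exon, chr12:83651332-83651361, plus strand: ctctcagattatTGCATGaccttcagattg
Luc7l3, 3′ UTR, chr11:94289607-94289636, minus strand: gttccatgagtgTGCATGttttcagtgtgt
Luc7l3, 3′ UTR, chr11:94289544-94289573, minus strand: gcattgtgtgtaTGCATGtctactcttaat
Luc7l3, 3′ UTR, chr11:94289048-94289077, minus strand: attccatctacaTGCATGaaaccttctgtg
Among the other 11831 protein-coding genes tested, 54.3% held at least 1 match, and 63.6% of the 8831 that were at least as long as the shortest member. The members held 0.154 matches per kilobase against 0.283 in the others. Introns were not searched, as no genome sequence was used.

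Upstream sequence (RefSeq, GRCm38.p6) is shown for Pnn, the member with the lowest ratio to control, for Srrm2, which had the highest control mean, and for Luc7l3, whose groups overlapped, as far as it is free of annotated exons. Capitals mark matches to the short motifs named after the sequences. RefSeq promoter entries were matched for 8 members, all but Psip1 and Rnps1.
Pnn, chr12:59066769-59066883, plus strand, ending 36 bases before the RefSeq start: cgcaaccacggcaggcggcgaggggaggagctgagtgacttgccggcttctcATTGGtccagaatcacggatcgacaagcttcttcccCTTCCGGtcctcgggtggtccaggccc
Srrm2, chr17:23803037-23803186, plus strand, ending at the base before the RefSeq start: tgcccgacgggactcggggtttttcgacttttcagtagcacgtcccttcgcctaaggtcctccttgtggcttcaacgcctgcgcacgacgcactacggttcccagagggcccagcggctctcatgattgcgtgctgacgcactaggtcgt
Luc7l3, chr11:94321989-94322113, minus strand, ending 26 bases before the RefSeq start: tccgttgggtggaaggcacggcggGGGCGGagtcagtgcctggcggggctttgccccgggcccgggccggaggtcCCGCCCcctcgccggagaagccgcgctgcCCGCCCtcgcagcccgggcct
Motifs were searched on either strand of the 250 bases before the start, in the first RefSeq entry of each gene. CCAAT was found in 3 of the 8 members (Pnn, Srrm1 and Son) against 34.5% of 27025 genes, and GGGCGG in 3 (Srrm1, Prpf4b and Luc7l3) against 32.9%. CCGGAAG, the core of ETS factor sites, was found in Pnn, Prpf4b and Acin1 and in 7.05% of all genes. The palindromic NRF1 site was found in Srrm1 and in 0.781% of all genes, and TATAAA in Rbm25 and in 13.0%. CACGTG was found in none of the 8 and in 6.05% of all genes. No single motif was shared by all members, and the GC content of these windows ran from 32.4% in Rbm25 to 72.8% in Srrm1, with a median of 61.6% against 52.0% over all genes. The RefSeq starts used for Rbm25 (83635710) and Srrm2 (23803187) lie well inside their GENCODE genes, which begin at 83631236 and 23790532. Their windows, with the TATAAA match and the low GC content of Rbm25, are therefore not upstream of the whole gene.

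The libraries held between 47895459 and 55151484 counts in the controls and between 23474895 and 35650284 in the Rbfox2-deleted group. Controls 1 and 3 were nearly the same library, their counts differing by a chi-square of 3.44 per degree of freedom, where the next closest pair had 156, so they were summed and count as 1 sample (n = 2 for control, n = 3 for Rbfox2-deleted). Rbfox2-deleted 1 stood apart, with the fewest genes detected (14154 against 15950 to 17087) and Spearman correlations of 0.710 to 0.724 with the other libraries across the genes tested. Rbfox2 had 238, 11 and 250 counts in controls 1 to 3 and 2, 87 and 10 in Rbfox2-deleted 1 to 3, so the libraries labelled control 2 and Rbfox2-deleted 2 go against their labels in this gene. All directions below follow the labels. By Xist and Eif2s3y counts, Rbfox2-deleted 1 and 3 came from female mice and the other 4 libraries from males. Of the gate genes, Kit was present in all 6 libraries and Cd48 had at most 0.0900 CPM. Kit had 73.9 to 100 CPM in the controls and 73.1, 194 and 206 CPM in Rbfox2-deleted 1 to 3. Ly6a was lower in every Rbfox2-deleted library (330 to 423 CPM) than in every control (632 to 815 CPM). The sum of the 4 gate genes, in which Ly6a was the largest, did not overlap either (446 to 690 against 778 to 899 CPM). Slamf1, the gene of CD150, had 46.1 CPM in control 1, a like level in control 3 and 9.95 CPM in control 2, and 43.1, 21.1 and 60.2 CPM in Rbfox2-deleted 1 to 3. Summed markers of erythroid cells reached 343 CPM in Rbfox2-deleted 1 against 47.9 to 155 in the others. Those of macrophages were at 2.30 CPM in Rbfox2-deleted 1 and 18.2 CPM in Rbfox2-deleted 3, where Rbfox2-deleted 2 and the controls had 53.0 or more. Summed megakaryocyte markers were lower in all Rbfox2-deleted libraries (44.0, 145 and 256 CPM) than in the controls (277 to 285 CPM). Among them, Itga2b had 10.6, 15.5 and 44.9 CPM in Rbfox2-deleted 1 to 3 against 12.3 to 15.5 CPM in the controls. In Rbfox2-deleted 3, Pf4 (59.4 CPM) and Gp1bb (13.9 CPM) lay within the control range. The B cell gene Cd79b was lower in all Rbfox2-deleted libraries (138 to 192 against 211 to 325 CPM). Ms4a1, another B cell gene, was at 0.128 CPM or less. Their part in the results below was not tested.

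Of the 10 speckle protein genes, 8 had lower levels in the libraries labelled Rbfox2-deleted, and their median log2 fold change was -1.03, against 0.11 for all 12350 genes tested, 46.5% of which lay below control. In CPM (counts scaled to the library total), 7 members were lower in all 3 Rbfox2-deleted libraries than in either control sample, a pattern found in 15.4% of all genes tested. Only Rnps1 among the members was higher in all 3, as 15.8% of genes were. In either direction that made 8 members, where 31.2% of genes did not overlap. Son and Luc7l3 overlapped between the groups. No member passed edgeR's quasi-likelihood test across all genes, which called 0 of 12350 genes (0%). At an unadjusted p under 0.05, edgeR had 4 members lower (Pnn, Srrm2, Prpf4b and Rbm25) against 4.56% of all genes, and Rnps1 higher against 5.33%, together 5 members against 9.89%. That background was 563 genes lower and 658 higher with TMM scaling, and 1087 lower and 339 higher with upper quartile factors. DESeq2 called 1 member, Pnn, with lower counts (adjusted p = 0.00581), where 3.37% of the 14137 genes with an adjusted p were called and 1.7% were called lower. Since Pnn was chosen from this contrast, nothing is read from these counts. Bulk RNA cannot tell fewer cells with a transcript from less of it per cell. As a sum, the 10 genes took 0.389%, 0.413% and 0.396% of the counts in controls 1 to 3 and 0.328%, 0.193% and 0.218% in Rbfox2-deleted 1 to 3.

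**Figure D1:**
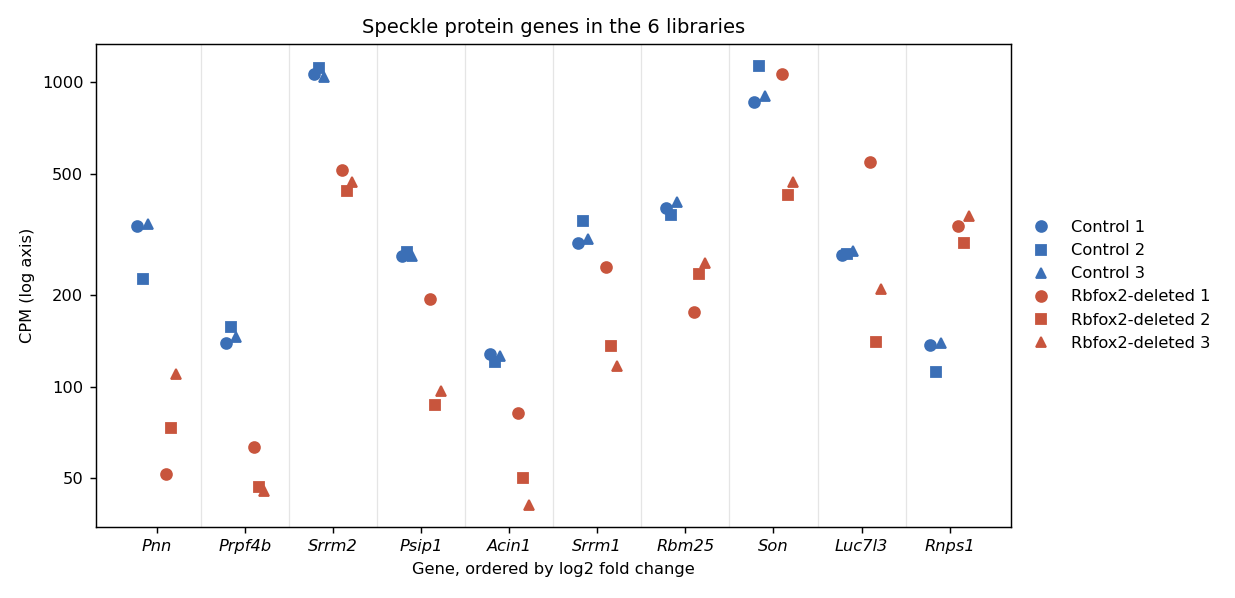
CPM (log axis) of the 10 speckle protein genes, ordered by log2 fold change, with 1 point per library and the shape giving the replicate number. The blue control points lie above the red Rbfox2-deleted points for 7 genes from Pnn to Rbm25, the 2 sets overlap for Son and Luc7l3, and Rnps1 is higher in the red points.

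Pnn (pinin, ENSMUSG00000020994, mm10 chromosome 12, 59066884 to 59073998, plus strand), which joins Rnps1 and Sap18 in the PSAP complex and is also found at desmosomes of epithelial cells, had the lowest ratio to control. It had 337, 227 and 343 CPM in controls 1, 2 and 3 and 51.9, 73.4 and 110 CPM in Rbfox2-deleted 1, 2 and 3. The highest deleted library lay below the lowest control, although both groups were spread, by 1.51 times among controls and 2.12 times among deleted libraries. The mean was 283 ± 80.3 CPM in the controls (SD, n = 2) against 78.5 ± 29.4 CPM in the deleted group (SD, n = 3), or 27.7% of control, and the log2 fold change was -1.96 (SE 0.336).

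Acin1 (acinus, ENSMUSG00000022185, chromosome 14, 54642161 to 54686931, minus strand), the scaffold of the ASAP complex, had 128, 120 and 126 CPM in controls 1 to 3. It had 82.0, 50.4 and 41.0 CPM in Rbfox2-deleted 1 to 3. The controls were within 1.06 times of each other and all deleted libraries lay below them, with a log2 fold change of -1.10 (SE 0.518), and -1.66 without Rbfox2-deleted 1. Exons of 1700123O20Rik on the other strand cover 463 of its 10527 exon bases, so some of its counts are uncertain in libraries without strand.

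Rnps1 (ENSMUSG00000034681, chromosome 17, 24414565 to 24425901, plus strand), the RNA-binding subunit that both complexes share, went the other way. It had 137, 112 and 139 CPM in controls 1 to 3 and 338, 296 and 362 CPM in Rbfox2-deleted 1 to 3. The 2 ranges were far apart, and the deleted libraries were within 1.23 times of each other. The mean was 125 ± 19.0 CPM in the controls (SD, n = 2) against 332 ± 33.7 CPM in the deleted group (SD, n = 3), 2.66 times control, with a log2 fold change of 1.35 (SE 0.297). Sap18, the small subunit of both trimers, had a mean of 158 CPM in each group and a log2 fold change of -0.06 (SE 0.319).

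A ratio of 2 genes in the same library does not depend on how libraries are scaled. Pnn had 2.46, 2.03 and 2.46 counts per Rnps1 count in controls 1 to 3 and 0.154, 0.248 and 0.304 in Rbfox2-deleted 1 to 3. The ratio was 2.24 ± 0.301 in control (SD, n = 2) and 0.235 ± 0.0760 in the deleted group (SD, n = 3), 9.54 times lower. Acin1 had 0.997 ± 0.114 counts per Rnps1 count in control (SD, n = 2) and 0.175 ± 0.0649 in the deleted group (SD, n = 3), 5.69 times lower. For Sap18 the ratio was 1.29 ± 0.376 in control (SD, n = 2) and 0.481 ± 0.0799 in the deleted group (SD, n = 3). None of these 3 ratios overlapped between the groups. They are not separate results, since all share the Rnps1 counts, and Rnps1 CPM did not overlap either. Sap18 had a mean of 158 CPM in each group, so its lower ratio goes with the higher Rnps1 level. The ratio of Pnn to Acin1, which set the PSAP against the ASAP partner, did overlap, with 1.88 to 2.72 in the control libraries and 0.633, 1.46 and 2.69 in Rbfox2-deleted 1 to 3.

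**Figure D2:**
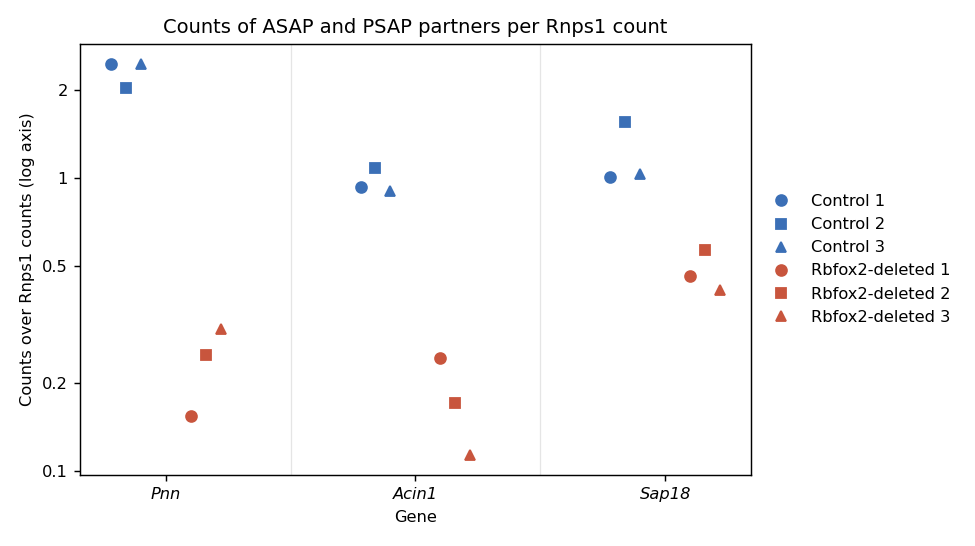
Counts of Pnn, Acin1 and Sap18 divided by the Rnps1 counts of the same library (log axis), with 1 point per library. Pnn lies between 2.03 and 2.46 in the blue controls and between 0.154 and 0.304 in the red Rbfox2-deleted libraries. The blue and red points do not overlap for any of the genes, which all share the Rnps1 counts.

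Srrm2 (ENSMUSG00000039218, chromosome 17, 23790532 to 23824741, plus strand), the large scaffold of the speckle core, had the highest control mean in CPM of the members, although Son was above it in control 2. It had 1062, 1117 and 1044 CPM in controls 1 to 3 and 514, 439 and 472 CPM in Rbfox2-deleted 1 to 3. Both groups were tight, within 1.07 and 1.17 times, and did not overlap, and the log2 fold change was -1.24 (SE 0.273). The other core scaffold, Son (ENSMUSG00000022961, chromosome 16, 91647506 to 91679221, plus strand), had 859, 1131 and 900 CPM in controls 1 to 3. In Rbfox2-deleted 2 and 3 it had 427 and 472 CPM, but Rbfox2-deleted 1 had 1068 CPM, within the control range. The log2 fold change was -0.60 (SE 0.559) with all libraries and -1.40 without Rbfox2-deleted 1. It was -0.34 without control 2, without Rbfox2-deleted 2 or without Rbfox2-deleted 3. The ratio of Son to Srrm2 counts was 2.08 in Rbfox2-deleted 1 and between 0.809 and 1.01 in the other 5 libraries.

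Srrm1 (SRm160, ENSMUSG00000028809, chromosome 4, 135320484 to 135353321, minus strand), a coactivator that bridges factors bound to exonic enhancers and the splicing machinery, had 297, 350 and 305 CPM in controls 1 to 3. It had 248, 136 and 117 CPM in Rbfox2-deleted 1 to 3. All deleted libraries were below the controls, and Rbfox2-deleted 1 was the nearest to them. The log2 fold change was -0.96 (SE 0.495), and -1.59 without that library.

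Rbm25 and Luc7l3 work with the U1 particle at the 5′ splice site. Rbm25 (ENSMUSG00000010608, chromosome 12, 83631236 to 83683123, plus strand) had 386, 366 and 405 CPM in controls 1 to 3 and 176, 235 and 255 CPM in Rbfox2-deleted 1 to 3. Rbfox2-deleted 1 was the lowest, the groups did not overlap, and the log2 fold change was -0.87 (SE 0.229), between -0.90 and -0.86 when single samples were left out. Luc7l3 (ENSMUSG00000020863, chromosome 11, 94287890 to 94321988, minus strand) had 271, 272 and 280 CPM in controls 1 to 3. In Rbfox2-deleted 1 it had 546 CPM, but 140 and 210 CPM in Rbfox2-deleted 2 and 3. The deleted libraries lay on both sides of a control group that spread by only 1.03 times, and the log2 fold change was 0.17 (SE 0.688) with all libraries and -0.88 without Rbfox2-deleted 1. Without Rbfox2-deleted 2 or 3 it was 0.53 or 0.45, and without controls 1 and 3 it was 0.09.

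Prpf4b (PRP4 kinase, ENSMUSG00000021413, chromosome 13, 34875302 to 34906064, plus strand), which phosphorylates spliceosome proteins, had 139, 157 and 146 CPM in controls 1 to 3. It had 63.4, 47.0 and 45.6 CPM in Rbfox2-deleted 1 to 3. The deleted mean was 34.7% of control, the second lowest share among the members, and the log2 fold change was -1.56 (SE 0.427). Psip1 (LEDGF, ENSMUSG00000028484, chromosome 4, 83455680 to 83486459, minus strand), a chromatin reader that binds splicing factors, had 269, 277 and 270 CPM in controls 1 to 3 and 194, 87.1 and 96.6 CPM in Rbfox2-deleted 1 to 3. The controls were within 1.03 times and the deleted libraries all below them, with a log2 fold change of -1.10 (SE 0.519), and -1.80 without Rbfox2-deleted 1. Exons of Snapc3 on the other strand cover 483 of the 5082 exon bases of Psip1, so some Psip1 counts are uncertain too. In control 1, Snapc3 had 1143 counts and Psip1 12871, where 1700123O20Rik had 11504 and Acin1 6116.

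**Figure D3:**
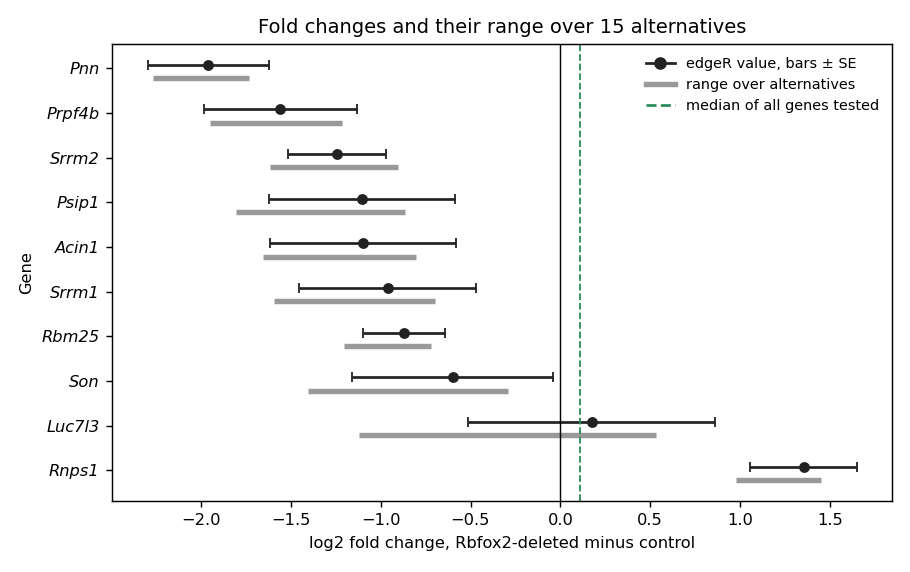
The log2 fold change (Rbfox2-deleted minus control, edgeR) of each gene as a point with bars of 1 SE, above a grey bar that spans its values over 15 other ways of processing the counts. The grey bars stay below 0 for 8 genes and above 0 for Rnps1, and that of Luc7l3 runs from -1.12 to 0.53.

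Within the deleted group the members did not vary alike. Rbfox2-deleted 1 was the highest of the 3 deleted libraries for 7 members (Srrm1, Srrm2, Prpf4b, Psip1, Son, Acin1 and Luc7l3) and the lowest for Pnn and Rbm25. Relative to the control mean, the median of the members was -0.54 on the log2 scale in Rbfox2-deleted 1, with 7 of 10 below, and -1.28 in each of Rbfox2-deleted 2 and 3, with 9 of 10 below. Rbfox2-deleted 2 is the only deleted library of the same sex as the controls. Without Rbfox2-deleted 1, 9 members lay below both controls and Rnps1 above, where 21.3% and 32.6% of all genes did so. Malat1, a nuclear RNA that gathers at speckles, was at 6357 CPM in Rbfox2-deleted 1, at 997 and 879 CPM in Rbfox2-deleted 2 and 3 and at 1814 to 2137 CPM in the controls. Neat1, the RNA of the neighbouring paraspeckles, was at 1.87 CPM in Rbfox2-deleted 1 and between 6.90 and 13.5 CPM in the others. Whether these go with the levels of Son and Luc7l3 in that library was not tested.

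Some members were close to each other in all 5 samples. As a root mean square difference of log2 CPM centred on each gene's mean, Srrm1 and Acin1 were 0.121 apart, Srrm1 and Psip1 0.159, and Srrm2 and Prpf4b 0.204. Pnn was nearest to Srrm2, at 0.557. Rnps1 was far from every member, from 0.964 for Luc7l3 to 1.65 for Pnn. By the same measure over 6895 protein-coding genes with a mean of at least 10 CPM, Pnn was nearest to Rora (0.229), Nupr1 (0.249), Zfp362 (0.282), Man1a2 (0.305) and Cox6b2 (0.328), where the median gene was at 1.38. Nupr1 had 98.1, 96.0 and 93.9 CPM in controls 1 to 3 and 14.7, 28.3 and 43.2 CPM in Rbfox2-deleted 1 to 3, the same order of deleted libraries as Pnn. Rnps1 was nearest to Traf1 (0.0513), Ywhah (0.0579), Slc25a20 (0.0812), Skap2 (0.0819) and Snapin (0.0838), with a median gene at 0.903. With 5 samples, such likeness is a description.

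To compare levels between genes, CPM was divided by the length of the longest protein-coding transcript. In control, Srrm2 (122 ± 5.17 CPM per kilobase, SD, n = 2) and Son (115 ± 20.3) were the highest and overlapped over the control libraries. Rbm25 (90.2), Srrm1 (85.9), Psip1 (84.0) and Pnn (81.3) followed, each overlapping the next, and Pnn overlapped Rnps1 (65.1). Luc7l3 (52.2), Acin1 (26.1) and Prpf4b (19.1) came last and were each separate from the gene before. These levels lay between the 74.1st and the 90.9th percentile of all genes tested. In the deleted group the order was led by Rnps1, seventh in control, at 173 ± 17.5 CPM per kilobase (SD, n = 3). Its lowest deleted library (154) lay above the highest of any other member (122, Son in Rbfox2-deleted 1). Pnn moved from the sixth to the eighth place, at 22.5 ± 8.45 CPM per kilobase (SD, n = 3), and Acin1 and Prpf4b stayed last.

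**Figure D4:**
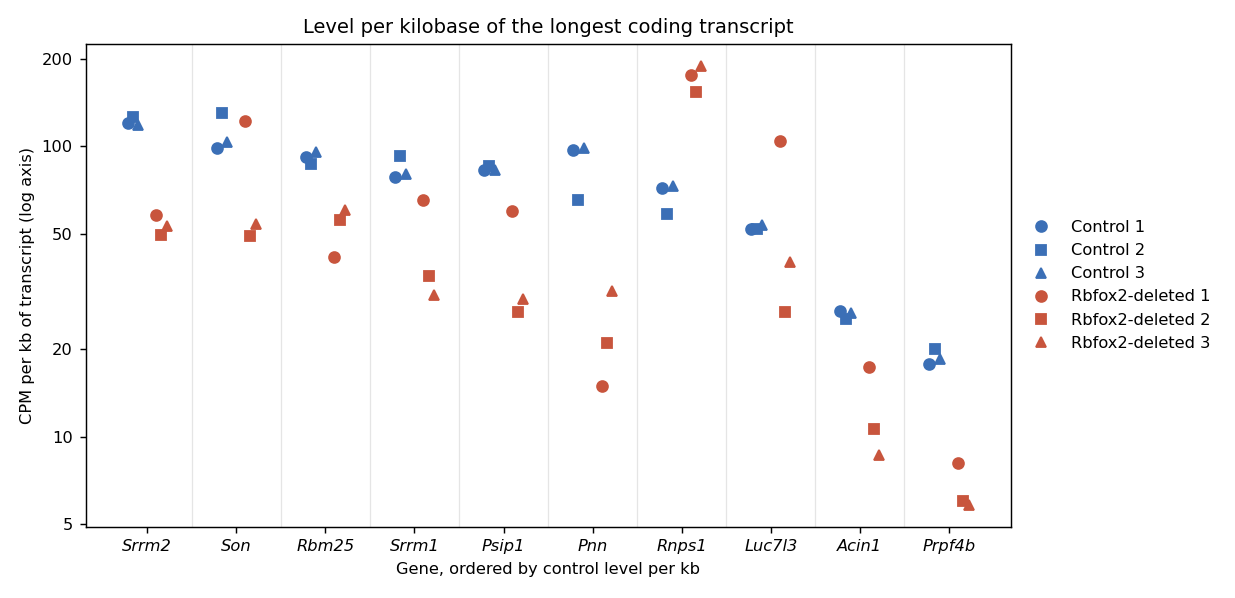
CPM per kilobase of the longest protein-coding transcript (log axis), genes ordered by their control mean, 1 point per library. In the blue controls the levels run from 122 for Srrm2 to 19.1 for Prpf4b, and in the red Rbfox2-deleted libraries Rnps1 lies above all other members.

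The genes share features of annotation that their choice did not use. All 10 have annotated transcripts with a retained intron, against 59.4% of the other 11831 protein-coding genes tested, and 7 of 10 have a transcript marked for nonsense-mediated decay, against 29.3%. Acin1, Psip1 and Rnps1 are those without the latter. They have more annotated transcripts, with a median of 11.5 against 5. Whether reads from retained introns and decay forms were counted depends on the authors' annotation, which is not known here. Of the GENCODE exon bases of each gene, the share outside protein-coding transcripts ran from 6.95% in Prpf4b to 72.0% in Rbm25 and was 61.9% in Rnps1 and 39.5% in Pnn. Counts per gene do not tell these forms apart. The longest coding transcripts were 1.92 kilobases (Rnps1) to 8.86 kilobases (Srrm2), with a median of 4.48 against 2.98. Fold changes varied with length over all genes. Genes of 3 to 5 kilobases, the class of 5 members, had a median of 0.18 on the log2 scale. Those over 5 kilobases, with 4 members, had -0.10, and those of 1 to 2 kilobases, the class of Rnps1, had 0.02. The classes without a member were further from 0, with -0.62 under 1 kilobase and 0.57 at 2 to 3 kilobases. With a correction for transcript length, the members' median was -0.83 and Rnps1 was at 0.98.

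Of 57 other speckle genes, listed by role, 42 lay below control, with a median of -0.32 on the log2 scale, which is nearer to the 0.11 of all genes than the members' median is. By edgeR 0 of the 57 passed over all genes (0%), with 7 lower and 0 higher at an unadjusted p under 0.05, where 4.56% and 5.33% of all genes were. DESeq2 called 1 lower and 0 higher, where 1.7% and 1.67% of genes were called, so that count is near the background. The groups did not overlap for 15 lower and 4 higher genes, beside 15.4% lower and 15.8% higher of all genes. Among 6 partners in the exon junction complex and the ASAP and PSAP trimers, 5 were below control. Of these, Sap18 (log2 -0.06, SE 0.319) and Magohb (-0.016, SE 0.849) were near 0 and overlapped between the groups. Magohb had 97.3 CPM in Rbfox2-deleted 1 but 27.8 and 24.4 CPM in Rbfox2-deleted 2 and 3. Its controls had 47.0 to 58.3 CPM. Magoh, a core subunit, was at 241 ± 24.7 CPM in the controls (SD, n = 2) against 126 ± 19.7 CPM in the deleted libraries (SD, n = 3), and its partner Rbm8a had 311 ± 14.0 and 172 ± 111 CPM (log2 -1.03, SE 0.542). Casc3, at under 10 CPM, had a log2 value of -1.31 (SE 1.63). The helicase Eif4a3, which anchors the complex on RNA, was at 154 ± 23.5 CPM in the controls (SD, n = 2) against 224 ± 22.3 CPM in the deleted libraries (SD, n = 3), with no overlap.

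Among 12 kinases and cyclins that act on arginine and serine stretches or on the polymerase, 8 were below control. Srpk1, which phosphorylates SR proteins in the cytoplasm, was at 131 ± 35.5 CPM in the controls (SD, n = 2) against 53.3 ± 7.65 CPM in the deleted libraries (SD, n = 3), and Cdk11b had 104 ± 13.0 and 49.3 ± 4.44 CPM. Ccnl2, a cyclin of speckles, had a log2 value of -0.50 (SE 0.490). The nuclear kinase Clk4 lay above control, with 32.2 ± 5.79 CPM in the controls (SD, n = 2) against 74.6 ± 20.3 CPM in the deleted libraries (SD, n = 3) and no overlap. Clk3 (log2 0.72, SE 0.452) and Cdk13 (1.10, SE 2.16) overlapped between the groups. Cdk13 had 47.9 CPM in Rbfox2-deleted 1 but 0.645 and 0.330 CPM in Rbfox2-deleted 2 and 3. Its controls had 5.95 to 11.2 CPM.

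Of 39 other SR-related genes, 29 were below control. The helicase Ddx46 was at 167 ± 14.9 CPM in the controls (SD, n = 2) against 66.4 ± 15.4 CPM in the deleted libraries (SD, n = 3), Rbm39 had 637 ± 41.3 and 338 ± 57.6 CPM, and Rsrc1 had 101 ± 14.0 and 47.5 ± 17.0 CPM. The gene that DESeq2 called, Scaf1, was chosen after its values were seen. It had 17.8, 14.4 and 17.6 CPM in controls 1 to 3 and 2.94, 4.80 and 7.20 CPM in Rbfox2-deleted 1 to 3 (log2 -1.81, SE 0.991). Above control were Sugp1 (log2 1.22, SE 0.591), U2af2, the large subunit that reads the polypyrimidine tract (1.17, SE 0.661), and Rsrp1 (0.31, SE 0.271).

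**Figure D5:**
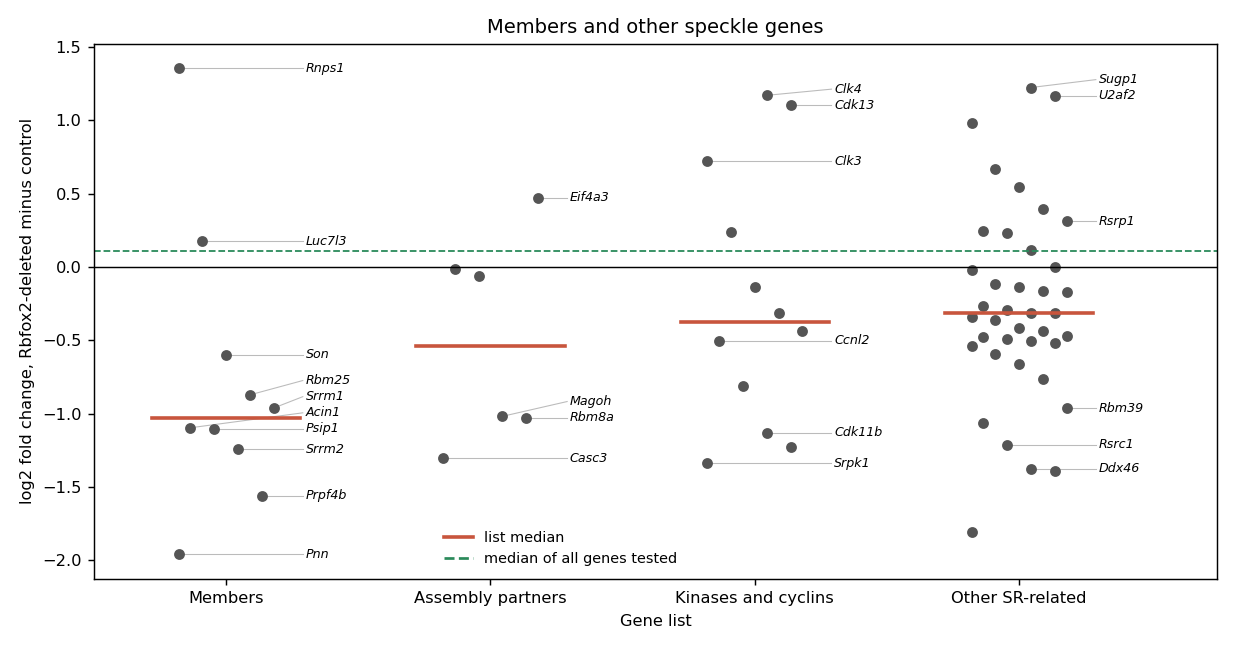
The log2 fold change (Rbfox2-deleted minus control, edgeR) of the 10 members and of 57 other speckle genes in 3 lists, with 1 point per gene, a red line at each list's median and a green dashed line at the median of all genes tested (0.11). The members' median is at -1.03 and that of the other lists together at -0.32, and each list has genes on both sides of 0.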

How the data were processed

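RNA-seq of 6 libraries was used. The authors deposited counts of reads per gene without normalization, keyed by Ensembl identifier. Per the submitters' processing notes, Trimmomatic 0.39, featureCounts and DESeq2 1.36.0 were used with build mm10. Which aligner, annotation and strand setting were used, and how reads with several matches were handled, is not stated in them. Rows of the same identifier were summed (60 identifiers, 0.449% of counts, no member among them). Symbols, transcripts and coordinates came from GENCODE M21 on the same build, and promoters from RefSeq.

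Controls 1 and 3 were summed and counted as 1 sample. The main test was the two-sided quasi-likelihood test of edgeR 4.0.16 (R 4.3.3) on TMM-scaled libraries, with group as its single term, a filterByExpr minimum of 10 counts (15 in total) and Benjamini-Hochberg adjustment over 12350 genes and a threshold of 0.05. SE is the fold change over the square root of F. All 10 members passed the filter on low counts. CPM in the text are scaled to the library total. DESeq2 1.42.0 with default settings and 14 other alternatives were run. The edgeR code was tested on simulated data, the outcome of which is not given here. The common dispersion that edgeR estimated was 1.09, a coefficient of variation of 104%. With such a spread, 0 genes called does not show that levels were equal. P values measure only the spread between these 5 samples.

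The members and gene lists were chosen with earlier results of these data known. All members are named. Of each list of other speckle genes, up to 3 genes per direction with the smallest p are named, and for likeness the 5 nearest genes to Pnn and Rnps1. A marker gene of the lists is not reported here.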

Additional observations from a re-analysis of the deposited data

How the results depend on the processing

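Over 15 alternatives, the log2 fold change kept its sign for Pnn (-2.26 to -1.73), Prpf4b (-1.95 to -1.22), Srrm2 (-1.61 to -0.90), Psip1 (-1.81 to -0.87), Acin1 (-1.66 to -0.80), Srrm1 (-1.59 to -0.70), Rbm25 (-1.20 to -0.72), Son (-1.40 to -0.29) and Rnps1 (0.98 to 1.45). The members' median ran from -1.54 to -0.83, with 8 or 9 of the 10 below control. Of the 57 other speckle genes, 35 to 48 lay below control, the most with upper quartile factors. With the stricter filter, 52 of them were tested and 37 lay below. Luc7l3 changed sign. It was at -0.29 with upper quartile factors, -0.031 with no filter on low counts, -0.11 with a stricter filter and -1.12 with sex as a covariate. When single samples were left out it ran from -0.88 to 0.53. With sex as a covariate, the group difference of every gene rests on Rbfox2-deleted 2 alone against the controls. Rbfox2-deleted 1 and 3 are the only female libraries, and the Rbfox2 counts of Rbfox2-deleted 2 go against its label. With upper quartile factors the median of all genes was -0.20, against 0.11 with TMM. The number of genes called was 477 with DESeq2 and 0 under the other alternatives. The number of members lower without overlap, an alternative chosen after seeing the data, was 7 to 9 when samples were left out and 7 with TMM-scaled CPM. The share of all genes tested with that pattern was 21.3% to 25.0% and 17.2% in these settings, against 15.4% in the main one.

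Whether the replicate numbers pair the samples cannot be told from the counts. Deviations of same-numbered libraries from their group means correlated at -0.0476, -0.0204 and 0.0456, and not every library correlated best with its own number. Since controls 1 and 3 were nearly the same library, the deviations of the controls follow nearly the same pattern, up to sign. These correlations therefore cannot single out or exclude a pairing. With a replicate block on 6 separate libraries, edgeR had 1348 genes at an unadjusted p under 0.05, against 2145 without the block, 0 genes were called, 9 members lay below control, and Luc7l3 was at -0.18. Fits without control 2, or without controls 1 and 3, leave 1 control sample, which is assumed to vary like the other group. Depth limits genes under a few CPM, and all 10 members had at least 1218 counts in each library.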
